A study of Homo sapiens with 4 samples.

Results

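Interferon response genes are transcripts that cells raise when they meet interferon or viral RNA, and 35 of them were followed through SNU-16 human gastric carcinoma cells that had grown in the stomach wall and the ovary of mice. The members were taken by gene symbol or its alias. Of the 35, 33 had a probe set naming that gene alone, and 24 of these had a mean over the 4 arrays above a signal minimum of 5.64 on the log2 scale. The other 9 lay at or under it. STAT2 and GBP1 had no such probe set, so they enter the promoter search but not the analysis of levels. The whole series holds 18417 genes with such a probe set, of which 14547 lay above the minimum and were tested.

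The mice were BalB/c nudes, which lack T cells, and SNU-16 cells were placed in their stomach wall. Cells were recovered from ovarian metastases and from stomach tumours, cultured for 7 days and implanted again into the stomach wall of the same strain. The 4 groups have 1 array each: ovary round 1, stomach round 1, ovary round 2 and stomach round 2. Ovary round 2 came from the round 1 ovary line and stomach round 2 from the round 1 stomach line, so each site is a single lineage carried through 2 passages, and the spread between its arrays may be partly technical. RNA came from cell pellets of each line, and all groups share the same parental line. The longer descriptions of the round 2 samples conflict with their titles: that of stomach gives the ovary as the site of culture, and that of ovary ends with a tumour in the stomach. Titles and tissue labels were followed.

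Type I and type III interferons bind receptors that act through the kinases JAK1 and TYK2 and lead a complex that holds STAT2 and IRF9 to the interferon-stimulated response element (ISRE). Interferon gamma acts largely through another promoter element, the gamma-activated site (GAS). Epithelial cells answer these signals with proteins that sense foreign RNA, degrade it, block viral entry or modify other proteins.

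Promoters of members show which of these elements they carry. RefSeq promoters of build GRCh38.p14 were matched for 28 of the 35 members and not for the other 7, and the 250 bases before each start were searched on both strands. The ISRE core GAAANNGAAA (TTTCNNTTTC on the other strand) was found in 19 of 28 members (67.9%) and in 3.71% of all 27305 genes, or 3.02% of promoters. The GAS core TTCNNNGAA, which reads the same on both strands, was found in 9 of 28 members (32.1%), in 8.09% of all genes and in 6.57% of promoters. The cores overlapped in 3 members. Members under the signal minimum carried the ISRE core in 7 of 8 promoters, and those above it in 11 of 18. The other matched members, GBP1 with the ISRE core and STAT2 without it, had no level of their own. The stretches below show the core on either side of that minimum, with the ISRE core in capitals (the GAS core for IRF1) and, for OAS3 and HERC5, only the core nearest the start. OAS3, IFIT5 and PARP14 were measured above the minimum, and IFIT1, IFIT3 and HERC5 under it. IRF1, also above it, carries the GAS core and no ISRE core. The PARP14 stretch holds a GAS core as well, in lower case before its ISRE core.
OAS3 (chr12:112938450-112938473, plus strand): agagccgggcggGAAAACGAAAcc
IFIT5 (chr10:89414511-89414567, plus strand): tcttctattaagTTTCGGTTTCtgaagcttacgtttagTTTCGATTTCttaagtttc
PARP14 (chr3:122680798-122680831, plus strand): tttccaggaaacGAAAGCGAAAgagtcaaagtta
IFIT1 (chr10:89392495-89392541, plus strand): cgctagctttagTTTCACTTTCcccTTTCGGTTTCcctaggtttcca
IFIT3 (chr10:89327829-89327896, plus strand): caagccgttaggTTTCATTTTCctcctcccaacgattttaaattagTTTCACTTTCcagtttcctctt
HERC5 (chr4:88457033-88457066, plus strand): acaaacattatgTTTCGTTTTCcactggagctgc
IRF1 (chr5:132490877-132490909, minus strand): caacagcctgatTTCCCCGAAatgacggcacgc
These letters are a description of the promoters and say nothing of whether a factor was bound.

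Values are log2 expression per probe set, and differences, also log2, are taken as ovary over stomach and as round 2 over round 1, so that a positive one is higher in ovary or in round 2. Array medians lay between 6.80 and 6.84, and the number of arrays, 1 per site and round, limits the precision of every comparison. Means carry the SD of n = 2 arrays, and a fitted difference carries limma's standard error. The site fit holds no term for round and the round fit none for site, so each error includes the other difference. All 9 measured epithelial markers and the SNU-16 line genes FGFR2, MYC and CD44 had means above the minimum. So did 14547 of all 18417 genes, 6 of 11 leukocyte markers and 4 of 6 fibroblast markers. Passing the minimum therefore does not by itself show an epithelial profile. The median level of the epithelial markers was 11.65 to 12.01 on the arrays, and that of the leukocyte markers 5.78 to 6.03. In bulk RNA, fewer cells expressing a gene and less RNA per cell cannot be told apart.

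**Figure D1:**
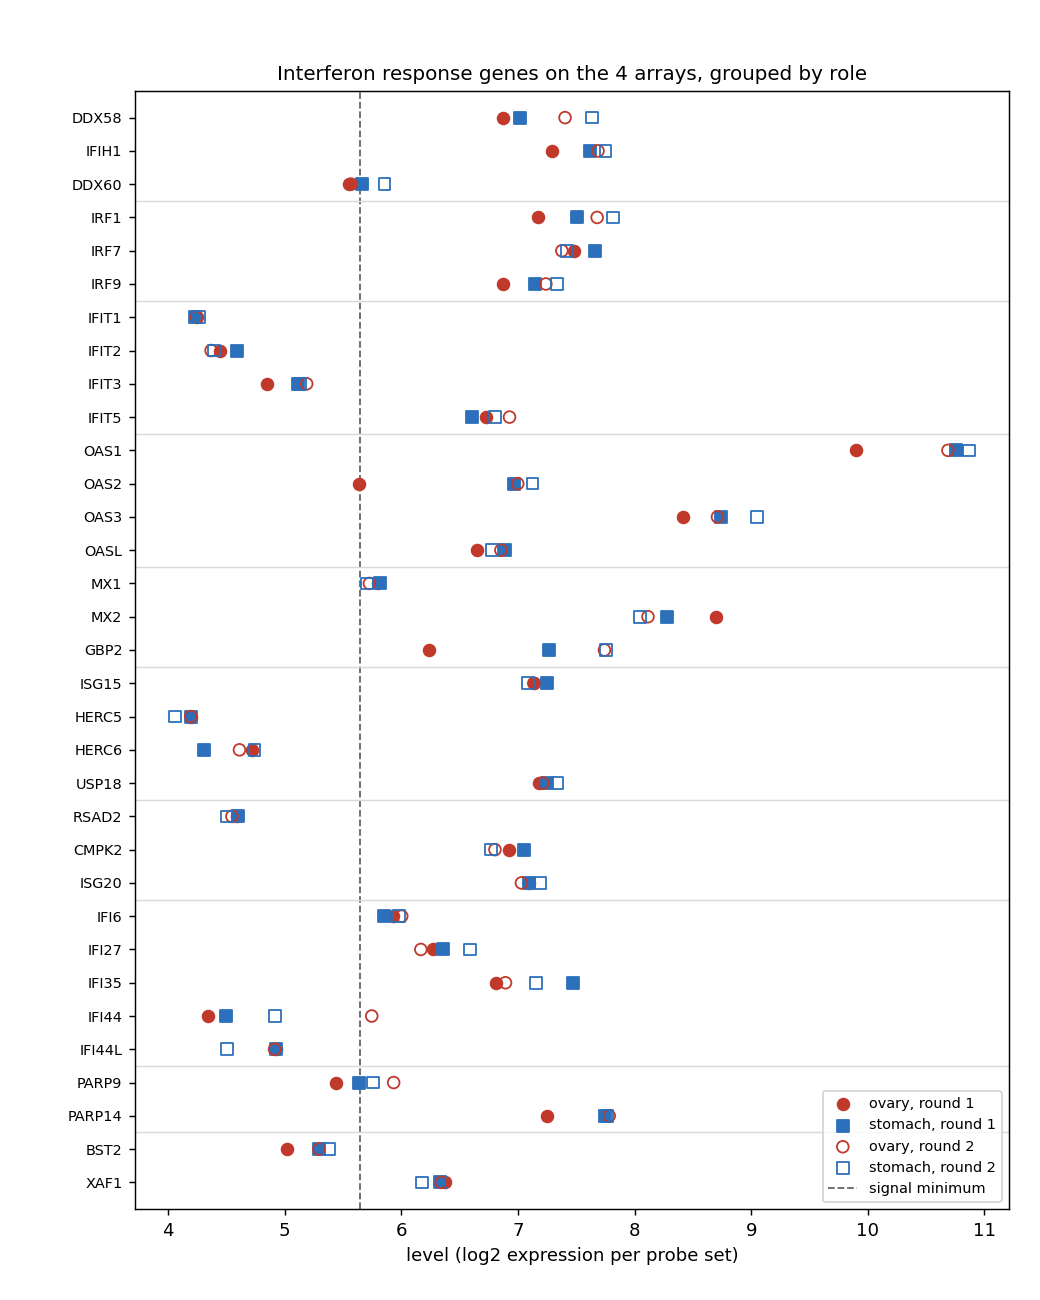
Level of the 33 measured interferon response genes on each array (log2 expression per probe set), grouped by role, with ovary as circles, stomach as squares, round 1 filled and round 2 open. The dashed line is the signal minimum of 5.64, and levels of different probe sets are not on a common scale. The filled red circle (ovary, round 1) is the lowest point of OAS1, OAS2 and GBP2, while IFIT1, HERC5 and RSAD2 lie left of the line with all 4 points close together.

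Several of the genes that interferon induces most readily in other cells lay under the minimum on every array. IFIT1, which binds foreign capped RNA, had 4.24 and 4.24 in ovary (rounds 1 and 2), against 4.23 and 4.27 in stomach. IFIT2, a partner of IFIT1, ranged over the 4 arrays from 4.37 to 4.59, and IFIT3, which stabilises IFIT1, from 4.85 to 5.19. RSAD2, which encodes the antiviral enzyme viperin, ranged from 4.51 to 4.60. In these 4 genes no array lay above the minimum. HERC5, the ligase that attaches ISG15 to proteins, was at the identical value of 4.19 on 3 arrays and at 4.06 in stomach round 2. Its relative HERC6 lay at 4.30 to 4.74, IFI44L at 4.50 to 4.92, and BST2, the tetherin that holds virions at the membrane, at 5.02 to 5.38. IFI44, a cytoplasmic interferon-induced protein, was the member under the minimum with the widest range. It had 4.34 and 5.75 in ovary (rounds 1 and 2), against 4.50 and 4.92 in stomach, so only its ovary round 2 value was above the minimum.

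Above the minimum, members of the cytoplasmic RNA sensing and signalling groups were measured on all arrays. DDX58, now named RIGI, detects RNA with a triphosphate end, and had 6.87 and 7.40 in ovary (rounds 1 and 2), against 7.02 and 7.63 in stomach. IFIH1, which encodes MDA5, a sensor of long double-stranded RNA, had 7.29 and 7.69 in ovary, against 7.62 and 7.75 in stomach. DDX60, a helicase placed beside these sensors, was near the minimum at 5.56 and 5.57 in ovary, against 5.66 and 5.86 in stomach. Each of the 3 sensors was lowest on the ovary round 1 array. The transcription factor IRF1 had 7.18 and 7.68 in ovary, against 7.51 and 7.82 in stomach, and IRF9, the DNA-binding part of the ISRE complex, had 6.87 and 7.24 in ovary, against 7.14 and 7.33 in stomach. Both were lowest in ovary round 1. IRF7, which drives interferon genes, had 7.48 and 7.38 in ovary, against 7.66 and 7.42 in stomach, with ovary round 2 the lowest.

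The oligoadenylate synthetases make the messenger that activates RNase L, and their genes OAS1, OAS2 and OAS3 lie side by side on chromosome 12. OAS2 (probe set 7958913) had 5.64 and 7.00 in ovary (rounds 1 and 2), against 6.96 and 7.13 in stomach. Its ovary round 1 value, 5.638 before rounding, was just under the signal minimum of 5.643, and every OAS2 difference that uses that array rests on it. OAS1 (probe set 7958884) had 9.90 and 10.69 in ovary, against 10.76 and 10.87 in stomach. OAS3 (probe set 7958895) had 8.41 and 8.71 in ovary, against 8.74 and 9.05 in stomach. For OAS1 and OAS3 both ovary arrays lay below both stomach arrays, and for OAS2 the ovary round 2 value lay between the stomach values. OASL, a related protein that lacks the synthetase activity and assists RIG-I, had 6.65 and 6.85 in ovary, against 6.89 and 6.78 in stomach. All 4 were lowest in ovary round 1.

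Among the interferon-induced GTPases the members went apart. GBP2, a guanylate-binding protein of the interferon gamma response, had 6.24 and 7.74 in ovary (rounds 1 and 2), against 7.27 and 7.75 in stomach (probe set 7917530). Its other probe set gave 6.30 and 7.50 in ovary, against 7.19 and 7.84 in stomach, so both put ovary round 1 lowest. Within round 2 the sites differed by -0.012 on the first probe set and by -0.34 on the other. MX2, which blocks nuclear entry of retroviruses, had 8.70 and 8.12 in ovary, against 8.28 and 8.04 in stomach, and was highest in ovary round 1. MX1, an inhibitor of influenza and other RNA viruses, was close to the minimum with a range of 5.70 to 5.81.

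Of the remaining members, the ADP-ribosyl transferase PARP14 had 7.25 and 7.78 in ovary (rounds 1 and 2), against 7.74 and 7.77 in stomach. Its neighbour PARP9, near the minimum, had 5.44 and 5.93 in ovary, against 5.64 and 5.76 in stomach. The ovary round 1 array was the low one for each. IFI35 had 6.81 and 6.89 in ovary, against 7.47 and 7.15 in stomach, and IFI27 had 6.27 and 6.17 in ovary, against 6.36 and 6.59 in stomach. In these 2 genes the sites did not overlap. USP18, which removes ISG15 and damps the type I receptor, had 7.18 and 7.21 in ovary, against 7.25 and 7.34 in stomach. Its sites did not overlap either, though its values lay close together. Little spread was also seen in ISG15, the ubiquitin-like modifier (7.09 to 7.25), the exonuclease ISG20 (7.03 to 7.19), the nucleotide kinase CMPK2 (6.77 to 7.05), IFI6, a mitochondrial survival protein (5.86 to 6.003), XAF1, an antagonist of the apoptosis inhibitor XIAP (6.18 to 6.38), and IFIT5 (6.61 to 6.93). The sites of XAF1 did not overlap, with ovary higher at 6.38 and 6.34, against 6.33 and 6.18 in stomach.

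The comparison of sites asked how lines from ovarian metastases differed from lines from stomach tumours. OAS2 differed most on average, by -0.73 ± 0.46 (1.65-fold lower in ovary), followed by GBP2 (-0.52 ± 0.53), OAS1 (-0.52 ± 0.27), IFI35 (-0.46 ± 0.14), OAS3 (-0.33 ± 0.16) and IFI27 (-0.25 ± 0.12). None passed the test: limma called 0 of the 24 members and 0 of 14547 genes (0.0%), and the smallest adjusted p of a member was 1. At an unadjusted p under 0.05 there was 1 member, IFI35, against 2.6% of all genes. With the round as a replicate block, 4 members (OAS1, OAS2, OAS3 and IFI35) had an unadjusted p under 0.05, against 6.3% of all genes, and 0 passed after adjustment (0.0% of all genes).

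By direction, 19 of 24 members had a mean below 0, where 49.3% of all genes did, and 13 were lower in ovary in both rounds, where 24.7% of all genes were. Higher in ovary in both rounds were 4 members (MX2, IFIT5, IFI6 and XAF1), against 25.3% of all genes. Ovary lay below stomach with no overlap in 6 members (OAS1, OAS3, DDX60, IFI27, IFI35 and USP18), against 11.2% of all genes, and above it in 1, XAF1, against 13.4%. DDX60 was under the minimum on both ovary arrays and passed it through stomach alone. Without it 5 members were lower with no overlap and 12 were lower in both rounds. The median over members was -0.16 for round 1 and -0.055 for round 2, and over all genes -0.0053 and 0.0076. Leaving out the ovary round 1 array sets ovary round 2 alone against both stomach arrays, so site and round are mixed. In that fit 13 of 24 members were lower in ovary and the median was -0.032. GBP2 turned to 0.23 on the probe set used, though within round 2 it differed by -0.012 there and by -0.34 on its other probe set. The differences of OAS2 and OAS1 were -0.046 and -0.13. IFI35 then differed by -0.42, OAS3 by -0.185 and IFI27 by -0.31.

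The differences were mostly those of round 1. In that round 4 members were at least 1.5-fold lower in ovary (OAS2 by -1.32, GBP2 by -1.03, OAS1 by -0.86 and IFI35 by -0.66), against 1.11% of all genes, and 0 were that much higher, against 0.914%. In round 2 the same genes differed by -0.13, -0.012 (-0.34 on the other probe set of GBP2), -0.18 and -0.26. In that round 0 members were 1.5-fold apart in either direction, against 0.419% lower and 0.804% higher over all genes. OAS3 differed by -0.33 in round 1 and -0.34 in round 2, and IFI27 by -0.087 in round 1 and -0.42 in round 2. The change of the site difference between rounds was 1.20 ± 1.00 for OAS2 and 1.02 ± 1.07 for GBP2 (0.55 ± 1.06 on its other probe set). This change was 0.67 ± 0.66 for OAS1, 0.51 ± 0.39 for PARP14 and 0.40 ± 0.48 for IFI35. Limma called 0 members and 0 genes for it (0.0%), with 0 members at an unadjusted p under 0.05, against 1.33% of all genes. It was above 0 in 16 of 24 members, where it was in 54.7% of all genes. That fit holds no term for site or round, so its errors include both differences.

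**Figure D2:**
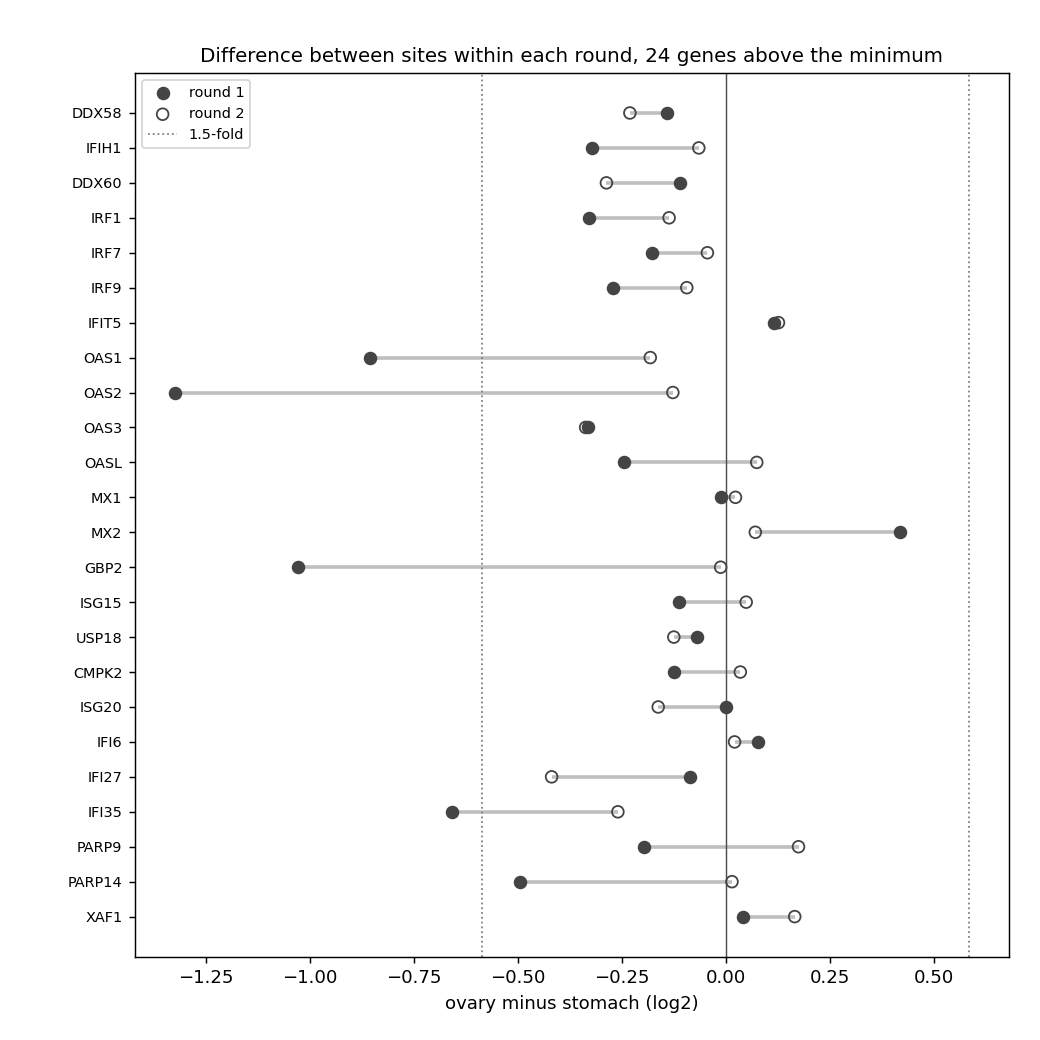
Ovary minus stomach (log2) for the 24 members above the minimum, in round 1 (filled) and round 2 (open), with dotted lines at 1.5-fold. The filled points of OAS2 (-1.32), GBP2 (-1.03), OAS1 (-0.86) and IFI35 (-0.66) lie beyond the left dotted line, and no open point lies beyond either line.

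Counted by array, ovary round 1 held the lowest level of 14 of the 24 members, against 26.4% of all genes. Stomach round 1 held the lowest of 2 (21.4% of all genes), ovary round 2 of 3 (24.6%) and stomach round 2 of 5 (27.6%). At least 0.32 log2 units below each of the other arrays in ovary round 1 were 6 members (OAS2, GBP2, OAS1, PARP14, IRF1 and IFIH1), against 2.45% of all genes. The 14 include OAS2, DDX60 and PARP9, which were under the signal minimum on that array and passed it through others. OAS2 is also in the 6. Over all 33 measured members, 17 were lowest in ovary round 1. These counts were chosen after the values were seen.

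**Figure D3:**
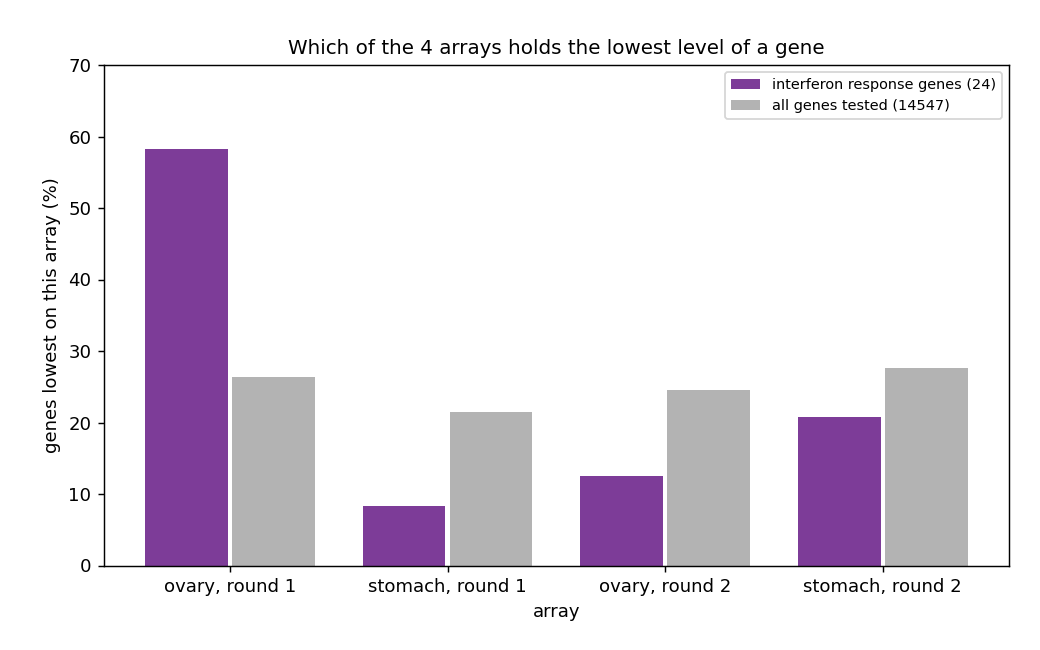
Percent of genes whose lowest level falls on each array, for the 24 interferon response genes (purple) and all 14547 genes tested (grey). The purple bar of ovary round 1 stands at 58.3% beside a grey bar of 26.4%, and the grey bars of the 4 arrays run from 21.4% to 27.6%. The purple bar of ovary round 1 includes OAS2, DDX60 and PARP9, which lay under the signal minimum on that array.

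The other comparison was of lines from the second implantation against lines from the first. GBP2 averaged 7.75 ± 0.0087 in round 2 and 6.75 ± 0.73 in round 1, a difference of 1.00 ± 0.34. OAS2 averaged 7.06 ± 0.090 in round 2 and 6.30 ± 0.94 in round 1 (0.76 ± 0.44), and OAS1 10.78 ± 0.13 in round 2 and 10.33 ± 0.60 in round 1 (0.45 ± 0.30). DDX58 averaged 7.52 ± 0.16 in round 2 and 6.94 ± 0.0995 in round 1 (0.57 ± 0.11), and IRF1 7.75 ± 0.096 in round 2 and 7.34 ± 0.23 in round 1 (0.41 ± 0.14). MX2 went the other way, with 8.08 ± 0.050 in round 2 and 8.49 ± 0.30 in round 1 (-0.41 ± 0.16). In GBP2, OAS2, DDX58, IRF1 and MX2 the rounds did not overlap, while OAS1 overlapped through its stomach round 1 array.

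Limma called 0 of the 24 members and 0 of 14547 genes between rounds (0.0%), and the smallest adjusted p of a member was 0.287 (DDX58). At an unadjusted p under 0.05 there were 5 members (DDX58, IRF1, GBP2, PARP9 and MX2), against 15.0% of all genes. PARP9 was under the minimum on both round 1 arrays and passed it through round 2 alone, and without it there were 4. With the site as a replicate block there were 9 members, PARP9 among them, against 16.2% of all genes, and 0 passed after adjustment (0.0% of all genes). By direction 17 of 24 members had a mean above 0, where 45.4% of all genes did. Higher in round 2 at both sites were 14 members, against 29.0% of all genes, and lower at both sites were 5 (MX1, MX2, IRF7, CMPK2 and XAF1), against 34.7%. Rounds did not overlap in 10 members that were higher in round 2, against 22.2% of all genes, and in 4 that were lower, against 26.8%. PARP9 is also counted in the 17 and in the 14 above, and without it the members higher with no overlap were 9. The members' median difference was 0.14 in ovary and 0.12 in stomach, and that of all genes was -0.0021 and -0.017. Without the ovary round 1 array, 16 of 24 members were higher in round 2 and the median was 0.027, where all 4 arrays gave 0.10. That fit sets both round 2 arrays against stomach round 1 alone, so it mixes round with site. The round difference was then 0.0215 for OAS1, 0.099 for OAS2, 0.48 for GBP2, 0.504 for DDX58, 0.24 for IRF1 and -0.20 for MX2.

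Each lineage was also taken alone, with 1 pair of arrays each. In the ovary lineage 3 members were at least 1.5-fold higher in round 2 (GBP2 by 1.504, OAS2 by 1.36 and OAS1 by 0.79), against 2.41% of all genes, and MX2 was that much lower (-0.585), against 0.983%. In the stomach lineage these genes differed by 0.49, 0.16, 0.11 and -0.24. The stomach lineage had 1 member past 1.5-fold, DDX58 with 0.62, against 1.23% of all genes higher, and 0 lower, against 0.935%. DDX58 differed by 0.53 in ovary, so its size was alike in both lineages, and OAS3 likewise had 0.30 in ovary and 0.30 in stomach. The difference between lineages is the same contrast as the interaction, for which 0 members had an unadjusted p under 0.05. The site and round comparisons use the same 4 arrays, so a low ovary round 1 value enters both.

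**Figure D4:**
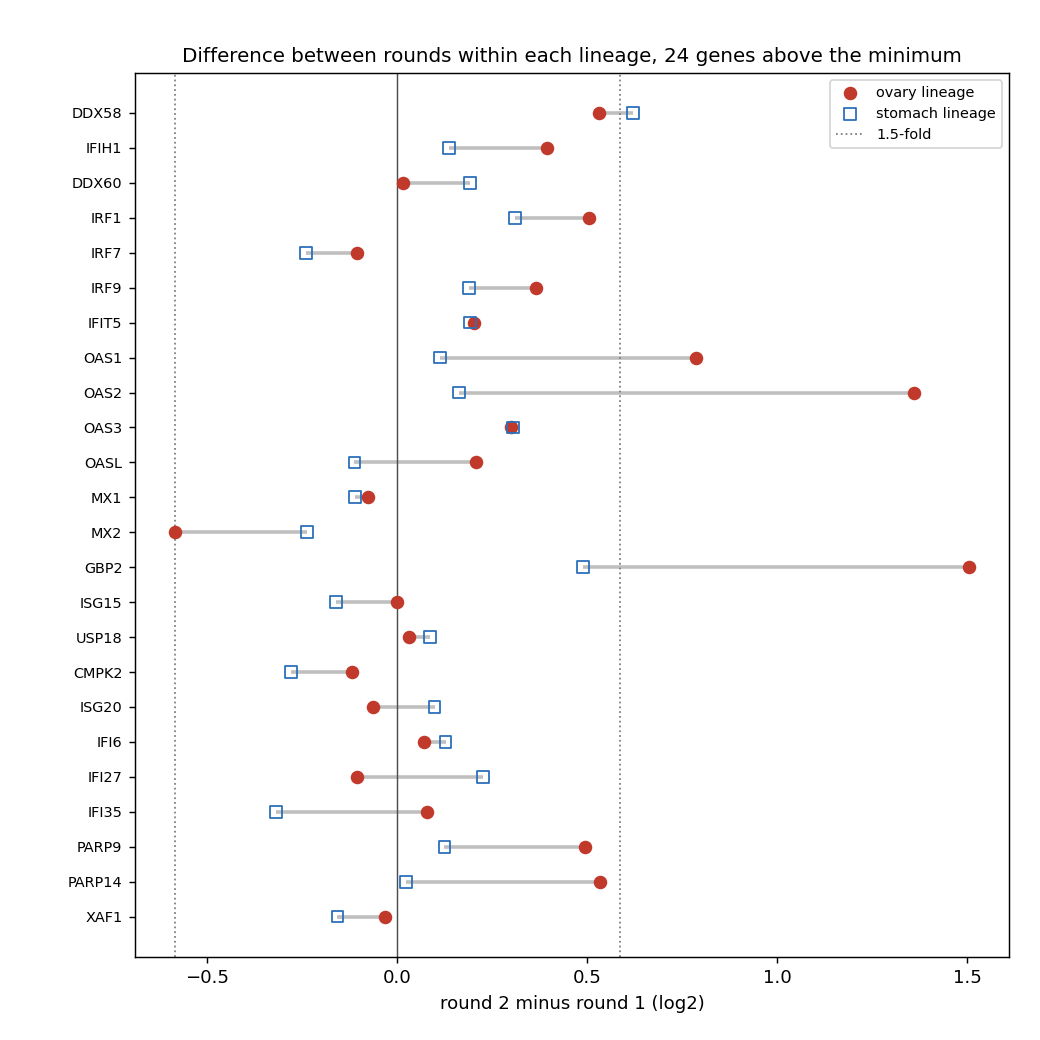
Round 2 minus round 1 (log2) for the 24 members above the minimum, in the ovary lineage (red circles) and the stomach lineage (blue squares), with dotted lines at 1.5-fold. Red circles of GBP2 (1.504), OAS2 (1.36) and OAS1 (0.79) lie far to the right of their blue squares, whereas both points of DDX58 (0.53 and 0.62) and of OAS3 (0.30 and 0.30) fall close together.

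Other parts of the interferon pathway were read from lists of ligands, receptors, adaptors, inhibitors and further induced genes, none with a gene called by limma (0.0% of all genes for sites and for rounds). Of 13 measured interferon genes, 10 lay under the minimum, among them IFNB1, the type I interferon of epithelial cells (3.89 and 3.89 in ovary in rounds 1 and 2, against 3.89 and 4.33 in stomach), and IFNG, the lymphocyte interferon (3.86 and 3.68 in ovary, against 3.86 and 3.96 in stomach). The 3 above it were the type III genes IFNL1, IFNL2 and IFNL3, of which IFNL2 and IFNL3 are near-identical copies whose probe sets may share signal. IFNL2 had 7.06 and 6.38 in ovary, against 7.28 and 7.01 in stomach, while IFNL3 ranged from 8.22 to 8.30.

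All 9 measured receptor and kinase genes were above the minimum, 7 of them higher in round 2 at both sites, against 29.0% of all genes. The type I receptor chain IFNAR1 averaged 9.27 ± 0.080 in ovary and 9.41 ± 0.27 in stomach (-0.14 ± 0.16), and IFNAR2 differed by 0.0054 ± 0.19 between sites and 0.33 ± 0.093 between rounds. JAK1 differed by -0.063 ± 0.15 between sites and 0.27 ± 0.082 between rounds, TYK2 by 0.0083 ± 0.11 and 0.13 ± 0.079, and IFNGR1, a chain of the interferon gamma receptor, by -0.032 ± 0.091 and 0.015 ± 0.076. IRF3, the factor that sensing adaptors activate, differed by -0.019 ± 0.091 between sites and -0.069 ± 0.069 between rounds, and 3 of 13 adaptor genes above the minimum were lower in ovary in both rounds, against 24.7% of all genes. SOCS1, which inhibits the JAK kinases, differed by -0.0027 ± 0.17 between sites and -0.31 ± 0.077 between rounds. Of the 8 inhibitors, 3 were lower in ovary in both rounds and 2 higher, against 24.7% and 25.3% of all genes. Between rounds, 5 of the 13 adaptor genes were higher in round 2 at both sites and 5 lower. Among the inhibitors 4 were higher and 3 lower, against 29.0% and 34.7% of all genes.

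Of 32 further interferon-induced genes above the minimum, 16 were lower in ovary in both rounds and 3 higher, against 24.7% and 25.3% of all genes, with a median of -0.090 for round 1 and -0.084 for round 2. At least 1.5-fold lower in ovary in round 1 were 6 of them, against 1.11% of all genes, and 1 was that much higher, against 0.914%. In round 2, 0 were 1.5-fold apart in either direction, against 0.419% lower and 0.804% higher over all genes. The lowest level fell in ovary round 1 for 12 of the 32 (26.4% of all genes) and in ovary round 2 for 11 (24.6%). Furthest apart between sites were TNFSF10, the death ligand TRAIL, and SAMD9L, a translational repressor. TNFSF10 had 8.41 and 9.61 in ovary (rounds 1 and 2), against 9.91 and 9.98 in stomach (-0.93 ± 0.41). SAMD9L had 7.62 and 9.45 in ovary, against 9.06 and 9.85 in stomach (-0.92 ± 0.66), and differed by 1.31 ± 0.50 between rounds. Its neighbour SAMD9 was furthest apart between rounds, at 1.39 ± 0.43. Of the 32 genes, 13 were higher in round 2 at both sites and 12 lower, against 29.0% and 34.7% of all genes. EIF2AK2, the kinase PKR that stops translation on double-stranded RNA, differed by -0.0014 ± 0.092 between sites and 0.030 ± 0.075 between rounds.

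The ovary round 1 array was low in the epithelial markers as well. It held the lowest level of 8 of 9 (EPCAM, CDH1, KRT8, KRT18, KRT19, CLDN4, CEACAM5 and CEACAM6, though not LGALS4), against 26.4% of all genes, and the median of their site differences was -0.27 for round 1 and -0.041 for round 2. Their summed linear signal was 29835 and 36168 in ovary (rounds 1 and 2), against 35708 and 38277 in stomach. The SNU-16 line genes FGFR2, MYC and CD44 did not share this. Ovary round 1 held the lowest level of 1 of these 3, and their median site difference in round 1 was 0.038. Their sums were 23959 and 23311 in ovary, against 23694 and 21704 in stomach. Leukocyte markers, 6 of 11 above the minimum, summed to 1361 and 1465 in ovary, against 1651 and 1597 in stomach, with the pan-leukocyte gene PTPRC under the minimum on every array (3.97 to 4.11). Of 4 measured markers of plasmacytoid dendritic cells, the main producers of type I interferon, 3 were under the minimum, and their sums were 196 and 176 in ovary, against 187 and 190 in stomach. Fibroblast markers, 4 of 6 above the minimum, summed to 483 and 462 in ovary, against 513 and 467 in stomach, and endothelial markers, 2 of 5 above it, to 238 and 215 in ovary, against 236 and 215 in stomach. Host cells would be of mouse, whereas the probe sets name human genes, so these sums cannot be read as amounts of host cells. The part of these markers in the interferon values was not tested.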

How the data were processed

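Expression of 4 arrays was deposited by the authors as log2 values per probe set, made with Affymetrix Expression Console per the submitters' processing notes. The sources used here do not give how background, normalization and probe summary were handled. That the scale is log2 rests on the range of the values, 2.25 to 14.24. RNA was extracted with TRIzol and labelled with biotin, per the labels' protocols. Groups and rounds came from sample titles.

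Of 33297 rows, 19460 named 1 gene in the platform annotation, 1754 several and 12083 none. Rows naming several genes were left out. Symbols were then updated to a RefSeq table of GRCh38.p14 (19429 found, 31 not). The highest-mean probe set stood for the 769 genes with over 1 row. Genes over the 30th percentile of row means (5.64) were tested, 14547 in all, and 3870 were removed.

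Sites, rounds and their interaction were fitted over all tested genes by lmFit and eBayes of limma (version 3.58.1, R version 4.3.3), with two-sided p-values adjusted after Benjamini-Hochberg and called under 0.05, with 2 residual degrees of freedom, or 1 with a replicate block. The code was tested on simulated data. Each sample's replicate number is its round, which the labels give for both sites. Deviations of same-round samples from the site means correlated at r = 0.411 across genes. Those of same-site samples from the round means correlated at r = 0.101. With 2 arrays a site and a round, the pairs mirror each other, so each r is a single correlation. Samples of a site are successive passages, so p-values measure the spread between these arrays only. Values are given for the 6 members with the largest site difference, the 6 with the largest round difference, the 5 with the largest interaction and the highest of each role. The other members are given with their values or range. Members and lists were chosen with earlier results of these data known. Figures were drawn with matplotlib 3.10.9.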

Additional observations from a re-analysis of the deposited data

Results flagged for a closer look

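In 9 of the 24 members a difference changed direction between the paired arrays, 6 of them between rounds for the site difference and 5 between sites for the round difference. Limma called 0 interactions, and each direction rests on 1 pair of arrays. The ovary minus stomach difference of PARP14 was -0.50 in round 1 and 0.015 in round 2, and that of OASL was -0.25 in round 1 and 0.074 in round 2. PARP9 differed by -0.20 in round 1 and 0.17 in round 2. CMPK2 had -0.12 and 0.035, ISG15 -0.11 and 0.049, and MX1 -0.011 and 0.023 for the same rounds. Between rounds, IFI35 differed by 0.079 in the ovary lineage and by -0.32 in the stomach lineage, and IFI27 by -0.11 in ovary and by 0.22 in stomach. OASL differed by 0.21 in ovary and by -0.11 in stomach. ISG20 had -0.064 in ovary and 0.098 in stomach, and ISG15 had 0.0006 in ovary and -0.16 in stomach.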

How the results depend on the processing

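No alternative led limma to call a gene at an adjusted p under 0.05 for the sites, the rounds or the interaction. Leaving out each array in turn gave 13 to 18 of 24 members lower in ovary, with a median from -0.20 to -0.032 (all arrays: 19 and -0.15), and 13 to 18 members higher in round 2, with a median from 0.027 to 0.18 (all arrays: 17 and 0.10). Without the ovary round 1 array GBP2 turned to 0.23 between sites, with ovary round 2 set against both stomach arrays. Within round 2 GBP2 differed by -0.012 on the probe set used and by -0.34 on its other one. With each array left out, GBP2 on the probe set used ran from -1.27 to 0.23, and each such fit mixes site with round. With the sites of the round 2 samples exchanged, 16 of 24 members were lower in ovary, and OAS3 (0.0024) and IFI27 (0.17) changed direction. With the minimum at the 50th percentile, which left 15 members, 10 were higher in round 2 with a median of 0.26, and 10 had an interaction above 0 (16 of 24 otherwise). Centring arrays on their medians gave a round median of 0.12, and at an adjusted p under 0.10 it gave 4 genes between rounds, none of them a member. The replicate block changed no call and moved members at an unadjusted p under 0.05 from 1 to 4 between sites and from 5 to 9 between rounds. PARP9, which passed the minimum through round 2 alone, is in both of the counts between rounds. With differences of 0.32 log2 units, 9 members were apart between sites in round 1 and 2 in round 2, and 10 between rounds in ovary and 2 in stomach. At 2-fold these were 2, 0, 2 and 0. At 1.5-fold they were 4, 0, 4 and 1. The share of all genes was taken at 1.5-fold only, so the counts at 0.32 log2 units and at 2-fold cannot be set against one. The count of 14 members lowest in ovary round 1 was 17 of 33 with no minimum, and these alternatives for it were chosen after seeing the data. The cause of these shifts was not tested. With 2 arrays a site, the number of arrays limits what could be called.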

Other observations

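A probe set shared by GBP1, GBP3 and the pseudogene GBP1P1, which cannot be assigned to GBP1 alone, had 7.22 and 7.78 in ovary (rounds 1 and 2), against 7.98 and 8.27 in stomach. GBP3 on its own probe set had 6.52 and 6.91 in ovary, against 6.69 and 7.46 in stomach. The chemokine CXCL10, a target of interferon gamma, straddled the signal minimum with 4.78 and 5.57 in ovary, against 5.77 and 5.93 in stomach. NMI, a partner of IFI35, had 6.69 and 7.86 in ovary, against 7.37 and 8.01 in stomach. IFITM3, a restriction factor of viral entry, ran against these genes with 7.41 and 5.93 in ovary, against 6.25 and 5.50 in stomach. These genes were chosen after their values were seen.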
